A study of Homo sapiens with 6 samples.

Results

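The enzymes that make serine and that move its one-carbon unit on folate were followed at the RNA level in HDQ-P1 cells exposed to Y-320. The group holds 10 genes, chosen by name as the serine synthesis enzymes PHGDH, PSAT1 and PSPH, the cytosolic folate enzymes SHMT1 and MTHFD1, and the mitochondrial folate enzymes SHMT2, MTHFD2, MTHFD2L, MTHFD1L and ALDH1L2. Each of the 10 matched 1 row of the 40295 Ensembl gene rows in the deposited table. HDQ-P1 is an established human breast carcinoma cell line, and it was grown in high glucose medium with serum. Y-320 is a phenylpyrazoleanilide that the study tests as an enhancer of readthrough at premature termination codons. The treated group holds 3 libraries, from cells kept 48 h in Y-320 at 1 μM, and the control group 3 libraries from untreated cells, for which no solvent is described. All samples come from 1 cell line, and nothing in the labels says whether replicates were separate cultures, so p-values measure only the spread between these libraries. The question put to the RNA sequencing was which genes change in level when cells are exposed to Y-320.

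Cells make serine from a glycolytic intermediate in 3 steps, and serine hydroxymethyltransferase then passes a carbon of serine to tetrahydrofolate and releases glycine. In mitochondria this carbon is oxidized to formate, which leaves for the cytosol, where it is built into purines, thymidylate and the methyl group of methionine. The mitochondrial and cytosolic routes use different genes for like reactions. PHGDH is amplified in some breast cancers, MTHFD2 is known for high levels in embryonic and tumor tissue, and several of these genes are known targets of the stress-induced transcription factor ATF4, which binds a composite element with the core TGATGNAA.

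The libraries held 21045401 to 22740535 estimated counts, and the 10 enzymes had 150.1 to 6936 counts in each library, so all of them lay far above the limit of 3 counts that a gene without a count allows. Values are given as normalized CPM, which are estimated counts scaled to library size by the TMM method of edgeR (counts per 1e6), and the limit covers counting error only. These values are relative to the rest of a library, and so are the rises and falls below. Whether the amount of RNA per cell changed was not tested. All 10 enzymes passed edgeR's filter on low counts. The epithelial markers EPCAM, CDH1, KRT8, KRT18 and KRT19 were all expressed, with a summed level of 7321 to 7633 normalized CPM in untreated libraries and 4538 to 4570 with Y-320. The keratins KRT8, KRT18 and KRT19 fell by 1.02, 0.86 and 0.62 on the log2 scale and CDH1 by 0.11, while EPCAM rose by 0.38. The summed level of 5 leukocyte markers was 36.4 to 38.3 untreated and 67.2 to 73.9 with Y-320, nearly all of it CD68, which shares 81.0% of its 31-base words with other genes. CD3E had at most 2 counts in any library. The 3 endothelial markers summed to 17.5 to 18.9 normalized CPM untreated and 13.8 to 17.95 with Y-320, with PECAM1 higher by 1.22 and CDH5 lower (log2 fold change -1.29). The 4 fibroblast markers summed to 62.2 to 85.1 untreated and 33.1 to 46.2 with Y-320. The part of these markers in the results below was not tested, and in bulk RNA fewer cells of a type and less RNA per cell cannot be told apart.

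Sequences before the start sites of the enzymes are shown first. RefSeq windows on GRCh38.p14 (250 bases before to 50 after a start, 5′ to 3′ on the strand of the gene) were matched by symbol for 7 of the 10 genes, in 11 windows. PSPH, SHMT2 and ALDH1L2 had no window. Capitals mark matches, on either strand, to TGATGNAA (the composite ATF4 element), CACGTG (an E-box), CCAAT (the NF-Y box) or GGGCGG (a GC box), and no 2 matches of different motifs overlap. The windows of 4 genes that rose and 2 that fell are given.
PHGDH (chr1:119711684-119711983, plus strand): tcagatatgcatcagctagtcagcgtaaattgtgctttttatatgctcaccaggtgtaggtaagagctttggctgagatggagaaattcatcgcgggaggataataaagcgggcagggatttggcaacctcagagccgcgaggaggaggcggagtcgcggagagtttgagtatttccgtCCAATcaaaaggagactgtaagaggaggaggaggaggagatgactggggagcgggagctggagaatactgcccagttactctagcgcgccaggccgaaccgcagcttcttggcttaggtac
PSAT1 (chr9:78296875-78297174, plus strand): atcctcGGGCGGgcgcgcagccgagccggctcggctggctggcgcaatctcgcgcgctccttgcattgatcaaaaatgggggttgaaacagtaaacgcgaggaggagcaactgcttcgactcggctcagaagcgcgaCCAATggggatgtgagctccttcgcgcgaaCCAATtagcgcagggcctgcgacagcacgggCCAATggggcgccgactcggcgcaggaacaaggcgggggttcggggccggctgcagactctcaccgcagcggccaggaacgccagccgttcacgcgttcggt
MTHFD2 (chr2:74198365-74198664, plus strand): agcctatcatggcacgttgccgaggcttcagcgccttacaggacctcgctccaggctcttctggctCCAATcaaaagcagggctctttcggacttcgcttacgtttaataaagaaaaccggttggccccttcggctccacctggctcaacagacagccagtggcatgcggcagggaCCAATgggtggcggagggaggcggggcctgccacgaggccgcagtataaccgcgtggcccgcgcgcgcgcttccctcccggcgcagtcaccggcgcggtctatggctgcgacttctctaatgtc
MTHFD1L (chr6:150866236-150866535, plus strand): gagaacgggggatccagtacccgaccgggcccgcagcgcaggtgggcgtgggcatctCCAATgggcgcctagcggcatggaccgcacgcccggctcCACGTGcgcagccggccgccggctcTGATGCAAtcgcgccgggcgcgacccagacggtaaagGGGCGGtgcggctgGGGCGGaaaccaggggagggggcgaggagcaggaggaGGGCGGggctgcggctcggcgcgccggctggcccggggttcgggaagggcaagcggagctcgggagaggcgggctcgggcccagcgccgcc
MTHFD1 (chr14:64388103-64388402, plus strand): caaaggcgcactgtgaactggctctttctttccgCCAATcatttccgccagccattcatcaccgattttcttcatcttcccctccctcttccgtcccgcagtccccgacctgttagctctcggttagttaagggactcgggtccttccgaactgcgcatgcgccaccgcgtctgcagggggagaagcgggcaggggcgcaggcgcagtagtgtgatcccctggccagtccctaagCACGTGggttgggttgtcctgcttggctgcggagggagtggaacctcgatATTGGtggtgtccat
SHMT1 (chr17:18363501-18363800, minus strand): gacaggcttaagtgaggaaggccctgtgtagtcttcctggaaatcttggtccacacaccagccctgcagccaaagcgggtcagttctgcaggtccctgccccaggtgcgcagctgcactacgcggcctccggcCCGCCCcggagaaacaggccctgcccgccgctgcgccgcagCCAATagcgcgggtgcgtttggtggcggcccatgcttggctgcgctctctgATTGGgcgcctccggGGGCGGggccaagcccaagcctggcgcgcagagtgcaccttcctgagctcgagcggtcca
Of the 7 genes with a window, MTHFD1L alone held TGATGNAA, as TGATGCAA at chr6:150866357-150866364, in 3 of its 4 overlapping or alternative windows. This motif occurs in 3.62% of all 35116 windows of this length. CACGTG was found in MTHFD1L and MTHFD1, 2 genes that moved in opposite directions, and in 7.26% of all windows. CCAAT was found in 6 of the 7 genes, with 3 copies in PSAT1, 2 each in MTHFD2, MTHFD1 and SHMT1 and 1 each in PHGDH and MTHFD1L, and in 34.6% of all windows. Neither of the 2 windows of MTHFD2L held it. GGGCGG was found in 4 of the 7 genes and in 45% of all windows. The percentages are shares of single windows, whereas a gene with several windows counted if any of them held the motif. MTHFD1L had 4 windows and MTHFD2L 2. These are matches of letters in short windows, and they do not show that a factor binds there. A window without a match does not show that the gene lacks the motif elsewhere.

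With Y-320, 7 of the 10 enzymes were higher and 3 were lower at an adjusted p under 0.05 (edgeR's quasi-likelihood test, Benjamini-Hochberg over all genes tested). All 3 serine synthesis genes and 4 of the 5 mitochondrial folate genes were among those that rose. Both cytosolic folate genes and MTHFD2L were lower. Calls were common in these data, since of all 16580 genes in the test 26.2% passed as higher and 25.4% as lower, or 51.5% in either direction. Under a stricter rule that also asks for a log2 change beyond 0.5 in size, 5 of the 10 enzymes were higher and none was lower, against 8.44% and 7.28% of all genes tested. In all 10 genes the 3 treated libraries did not overlap the 3 untreated ones, 7 lying above and 3 below, against 59.2% of all genes tested (29.8% above and 29.4% below). For each, the two-sided exact permutation test gave p = 0.1, and 3 libraries against 3 can give none smaller. The median log2 fold change of the 10 enzymes was 0.53, and that of all genes tested was 0.00097. The median absolute log2 fold change was 0.59 for the enzymes and 0.21 for all genes tested. Because the 10 genes were chosen with earlier results of these data known, the contrast with all genes tested is a description only.

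**Figure D1:**
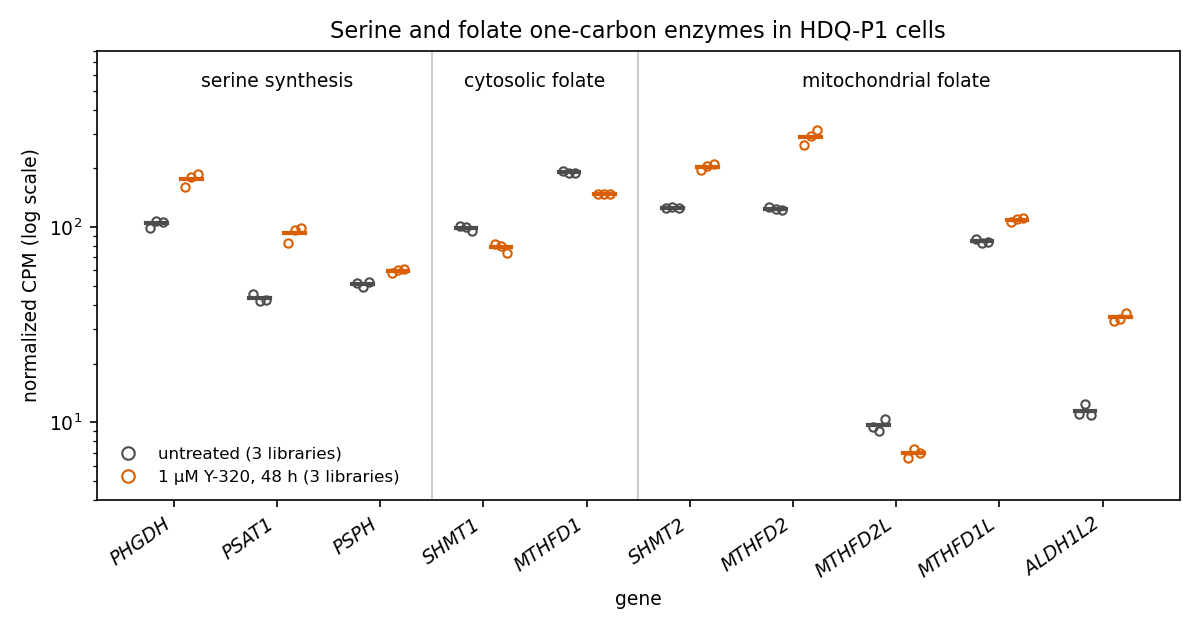
Normalized CPM (log axis) of the 10 enzymes in each library, with open circles for single libraries and bars for group means (n = 3 each). The orange circles of Y-320 lie above the gray untreated circles for 7 genes and below them for SHMT1, MTHFD1 and MTHFD2L.

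PHGDH (ENSG00000092621, chromosome 1 from 119648411 to 119744218 on the plus strand of hg38) catalyzes the committed step from 3-phosphoglycerate. Its level was 99.5, 107.2 and 106.5 normalized CPM in the untreated replicates in order of number, and 159.8, 179.5 and 187.8 in the Y-320 replicates. Every treated library lay above every untreated one, and replicate 1 was the lowest of the treated libraries. PHGDH rose by a log2 fold change of 0.75 (standard error 0.056, 95% confidence interval 0.63 to 0.88, edgeR adjusted p = 1.58e-06). PSAT1 (ENSG00000135069, chromosome 9 from 78297125 to 78330093 on the plus strand), the aminotransferase of the next step that uses glutamate, had 45.4, 42.1 and 42.2 normalized CPM untreated and 82.8, 96.9 and 98.9 with Y-320. The lowest treated library was thus well above the highest untreated one. PSAT1 had the largest rise of the 3 serine synthesis genes, 2.15-fold, or 1.10 on the log2 scale (standard error 0.066, 95% confidence interval 0.95 to 1.25, edgeR adjusted p = 3.29e-07). PSPH (ENSG00000146733, chromosome 7 from 56011051 to 56051604 on the minus strand), the phosphatase that releases serine, had 51.4, 49.4 and 52.2 normalized CPM untreated and 58.5, 60.2 and 60.7 with Y-320. The groups were close but separate. Its rise of 17.2% was the smallest of the 7 genes that rose (log2 fold change 0.23, standard error 0.035, 95% confidence interval 0.15 to 0.31, edgeR adjusted p = 3.11e-04). The 3 steps of the pathway therefore changed by unequal amounts, and the 95% confidence interval of PSPH did not reach those of PHGDH and PSAT1. In PSAT1 15.3% of 31-base words occur in other genes, among them its own pseudogenes, whose rows held at most 1.03 counts each in any library. In PSPH the share was 17.5%, with genes such as STAT3 and PMS2, and the part of these shared words in its counts was not tested.

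SHMT2 (ENSG00000182199, chromosome 12 from 57229573 to 57234935 on the plus strand) is the mitochondrial enzyme that splits serine into glycine and a one-carbon unit. It had 125.6, 126.7 and 125.0 normalized CPM untreated and 196.8, 205.1 and 209.5 with Y-320. The untreated libraries were almost level, with an SD of 0.887, and all treated libraries were higher. SHMT2 rose by a log2 fold change of 0.70 (standard error 0.030, 95% confidence interval 0.63 to 0.76, edgeR adjusted p = 2.86e-08).

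MTHFD2 (ENSG00000065911, chromosome 2 from 74186172 to 74217565 on the plus strand) is the dehydrogenase and cyclohydrolase of the mitochondrial route. It had 126.2, 123.4 and 121.7 normalized CPM untreated and 264.0, 293.4 and 313.0 with Y-320, so that it had more counts than any other of the 10 genes in treated cells. The treated libraries differed more among themselves than the untreated ones, but the lowest of them was still more than 2-fold above the untreated mean. The log2 fold change of MTHFD2 was 1.23 (standard error 0.054, 95% confidence interval 1.11 to 1.35, edgeR adjusted p = 3.67e-08). In the annotation, 36.8% of the bases of its canonical transcript lie opposite exons of other genes, SLC4A5 among them, and the sources used here do not say whether the counting used strand. The mean level of SLC4A5 itself was low in both groups, at 1.27 and 1.48 normalized CPM. Of the 31-base words of MTHFD2, 27.0% occur in other genes, the largest share among the 10 enzymes.

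MTHFD2L (ENSG00000163738, chromosome 4 from 74114174 to 74303099 on the plus strand), the paralog of MTHFD2 in mitochondria, moved the other way. Its level was 9.52, 9.07 and 10.5 normalized CPM untreated and 6.57, 7.28 and 6.997 with Y-320. All treated libraries were below all untreated libraries. MTHFD2L fell by 0.48 on the log2 scale (standard error 0.089, 95% confidence interval -0.68 to -0.28, edgeR adjusted p = 0.00115). It had the fewest counts and the widest interval of the 10 genes.

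MTHFD1L (ENSG00000120254, chromosome 6 from 150865679 to 151101887 on the plus strand) makes formate from 10-formyltetrahydrofolate in mitochondria. It had 86.6, 83.0 and 84.0 normalized CPM untreated and 106.8, 109.7 and 110.8 with Y-320. The spread within each group was small beside the gap between them. MTHFD1L rose by a log2 fold change of 0.37 (standard error 0.030, 95% confidence interval 0.30 to 0.44, edgeR adjusted p = 3.34e-06), less than SHMT2 and MTHFD2, whose intervals lie above its own.

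ALDH1L2 (ENSG00000136010, chromosome 12 from 105019784 to 105107643 on the minus strand) oxidizes 10-formyltetrahydrofolate to carbon dioxide in mitochondria with production of NADPH. Its level was 11.1, 12.4 and 10.9 normalized CPM untreated and 33.1, 34.0 and 36.5 with Y-320. ALDH1L2 had the largest change of the 10 genes in either direction, 3.02-fold, or 1.596 on the log2 scale (standard error 0.064, 95% confidence interval 1.45 to 1.74, edgeR adjusted p = 1.81e-08). Ranked from the highest log2 fold change among the 16580 genes tested, ALDH1L2 stood at 139, MTHFD2 at 294 and PSAT1 at 359, while PHGDH stood at 784, SHMT2 at 935, MTHFD1L at 2537 and PSPH at 4024.

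SHMT1 (ENSG00000176974, chromosome 17 from 18327860 to 18363563 on the minus strand) is the cytosolic counterpart of SHMT2. It had 101.3, 100.4 and 95.9 normalized CPM untreated and 81.5, 80.5 and 73.9 with Y-320. All treated libraries were lower than all untreated libraries. SHMT1 fell by 0.34 on the log2 scale (standard error 0.041, 95% confidence interval -0.43 to -0.24, edgeR adjusted p = 6.41e-05). MTHFD1 (ENSG00000100714, chromosome 14 from 64388031 to 64463457 on the plus strand) holds several cytosolic folate activities in 1 protein. It had 193.8, 189.3 and 190.2 normalized CPM untreated and 148.2, 147.6 and 147.0 with Y-320, the smallest relative spread of the 10 genes in treated cells. MTHFD1 fell by 0.37 on the log2 scale (standard error 0.024, 95% confidence interval -0.43 to -0.32, edgeR adjusted p = 6.12e-07). The falls of SHMT1 and MTHFD1 had overlapping intervals. Small parts of both canonical transcripts lie opposite exons of other genes, 7.28% in SHMT1 (SMCR8, which was higher, with a log2 fold change of 0.33) and 14.6% in MTHFD1 (ZBTB25 among them).

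**Figure D2:**
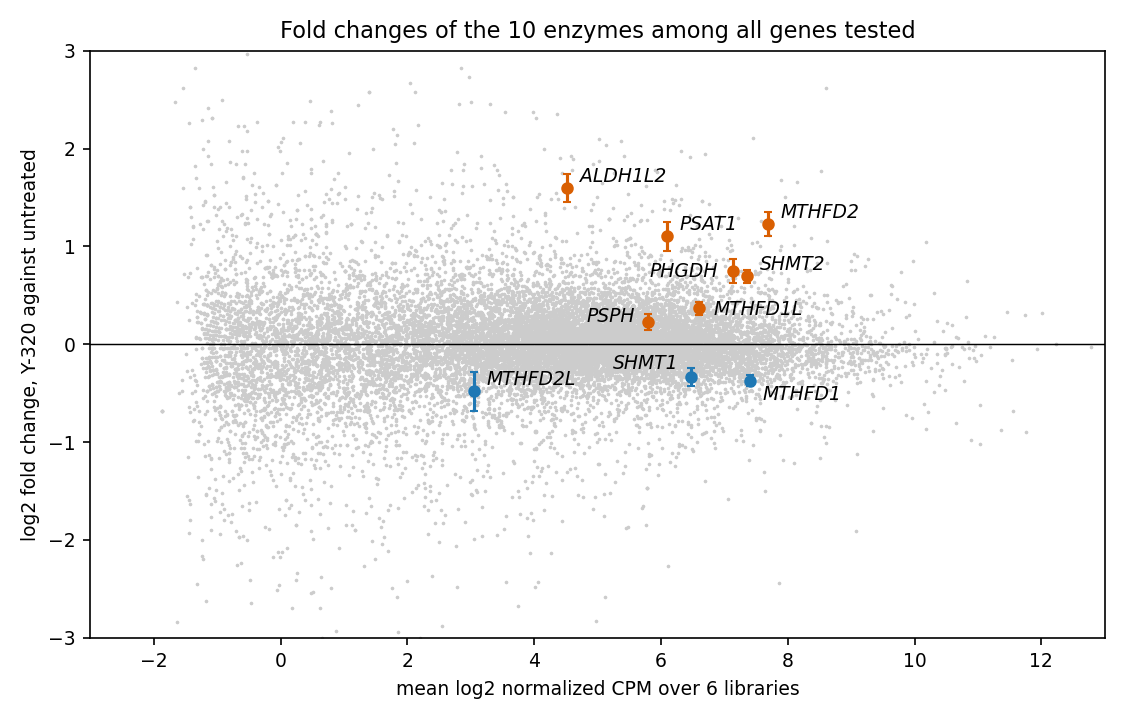
Log2 fold change of Y-320 against untreated (vertical axis) by mean log2 normalized CPM over the 6 libraries (horizontal axis) for all genes tested (gray) and the 10 enzymes (orange higher, blue lower, bars are 95% confidence intervals), with 29 genes outside the axes. ALDH1L2, MTHFD2 and PSAT1 stand at 1.10 or above, and SHMT1, MTHFD1 and MTHFD2L lie between -0.34 and -0.48.

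In each of the 7 genes that rose, Y-320 replicate 1 was the lowest of the 3 treated libraries. Without Y-320 replicate 1, the log2 fold change was 0.82 for PHGDH, 1.18 for PSAT1 and 1.29 for MTHFD2, and no call was lost.

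Ratios of 2 genes inside 1 library do not depend on how libraries are scaled. SHMT2 to SHMT1 and MTHFD1L to MTHFD1 set a mitochondrial against a cytosolic gene, whereas MTHFD2 and MTHFD2L are both mitochondrial. These are ratios of RNA counts, without correction for transcript length. The ratio of SHMT2 to SHMT1 counts was 1.24, 1.26 and 1.30 without the compound and 2.41, 2.55 and 2.84 with Y-320. It thus rose 2.05-fold, a difference of 1.03 on the log2 scale. For MTHFD1L to MTHFD1, the ratio was 0.447, 0.438 and 0.441 untreated and 0.720, 0.743 and 0.754 with Y-320, a difference of 0.74 on the log2 scale. The mitochondrial gene therefore remained the lower one in counts in every library. The ratio of the paralogs MTHFD2 and MTHFD2L was 13.3, 13.6 and 11.6 untreated and 40.2, 40.3 and 44.7 with Y-320, a difference of 1.70 on the log2 scale. The treated libraries lay above the untreated ones in all 3 ratios (two-sided exact permutation test, p = 0.1 before and after Benjamini-Hochberg adjustment over the 3 ratios, the smallest p this design allows).

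**Figure D3:**
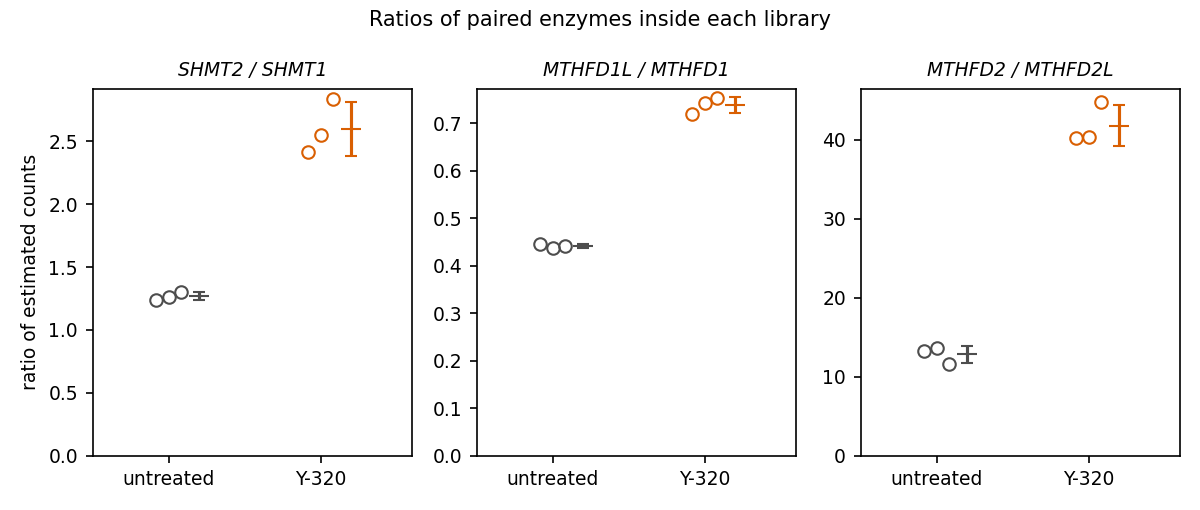
Ratio of estimated counts of 2 enzymes in each library (open circles, n = 3 per group), with the mean and SD beside them and an axis that starts at 0 in each panel. In all 3 pairs the Y-320 libraries lie above the untreated libraries, from 1.27 to 2.60 in the mean for SHMT2 to SHMT1, from 0.442 to 0.739 for MTHFD1L to MTHFD1 and from 12.8 to 41.7 for MTHFD2 to MTHFD2L.

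Levels of different genes were compared as normalized CPM per kilobase of the Ensembl canonical transcript. In untreated cells MTHFD1 was highest (60.6 ± 0.757, SD, n = 3), followed by SHMT2 (58.3 ± 0.411) and PHGDH (55.9 ± 2.28), and then by SHMT1 (39.3 ± 1.14), MTHFD2 (28.1 ± 0.525), PSPH (25.8 ± 0.711), MTHFD1L (24.5 ± 0.538) and PSAT1 (19.6 ± 0.852). MTHFD2L (4.11 ± 0.300) and ALDH1L2 (1.54 ± 0.110) were far lower. Libraries of neighbours in this order were separate except for PSPH and MTHFD1L. With Y-320, SHMT2 (94.5 ± 2.99) and PHGDH (94.2 ± 7.73) were highest and their libraries overlapped. MTHFD2 followed at 65.9 ± 5.60, ahead of MTHFD1 (46.8 ± 0.201) and PSAT1 (42.1 ± 3.98). MTHFD1L (31.6 ± 0.610), SHMT1 (31.1 ± 1.65) and PSPH (30.3 ± 0.591) lay together, and neighbours among these 3 overlapped. ALDH1L2 (4.65 ± 0.236) now stood above MTHFD2L (2.95 ± 0.152). The order depends on which transcripts are present, which the gene counts do not show. With the median length of the annotated coding transcripts, a choice made after seeing the data, SHMT2 was first in both groups and MTHFD1 ranked 4 in untreated cells, while MTHFD2L and ALDH1L2 remained the lowest and still changed places with Y-320.

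Summed per kilobase over each arm, as a description with no test, the serine synthesis genes went from 101.4 ± 1.37 normalized CPM per kilobase to 166.6 ± 12.3 (mean ± SD of 3 libraries, here and for the lists below). The 2 cytosolic folate genes had 99.9 ± 1.65 untreated and 77.9 ± 1.83 with Y-320, and the 5 mitochondrial folate genes had 116.5 ± 0.865 untreated and 199.6 ± 9.52 with Y-320. With the median transcript lengths, the untreated sums were 153.9 for serine synthesis, 121.2 for the cytosolic and 311.9 for the mitochondrial folate genes, so the sums depend on the length chosen. The fold of Y-320 over untreated was 1.64, 0.780 and 1.71 in this order with canonical lengths and 1.53, 0.782 and 1.67 with median lengths. Per kilobase of canonical transcript, SHMT2 made up 59.8% ± 0.609 of the sum of both serine hydroxymethyltransferases in untreated cells and 75.2% ± 1.52 with Y-320.

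The genes around these enzymes were grouped into 5 lists with 56 genes, 52 of which were tested. Of these lists, serine transport and use held the largest rises, with 8 of 15 tested genes higher and 3 lower, and a median log2 fold change of 0.17. Those are 53.3% and 20%, against 26.2% higher and 25.4% lower among all genes tested. The neutral amino acid transporter SLC1A4, which carries serine, rose from 26.6 ± 1.59 to 81.5 ± 7.27 normalized CPM (log2 fold change 1.62, SE 0.069, adjusted p = 3.03e-08 by edgeR). The glycine transporter SLC6A9 rose by a log2 fold change of 1.40 and the neutral amino acid transporter SLC1A5 by 1.26, with 22.8% of the 31-base words of SLC1A5 shared with other genes. Among enzymes that consume serine, SPTLC2, a subunit of the serine palmitoyltransferase that starts sphingolipid synthesis, rose by a log2 fold change of 0.87, and its relative SPTLC3 fell by 0.74 on the log2 scale. The other genes of this list that were lower were the serine racemase SRR and the phosphatidylserine synthase PTDSS1. The mitochondrial serine carrier SFXN1 did not pass the threshold, with a log2 fold change of -0.04 (edgeR adjusted p = 0.293). Its relative SFXN3 was higher, with a log2 fold change of 0.45 (edgeR adjusted p = 1.79e-05). SFXN2 had a log2 fold change of -0.10 and did not pass the threshold.

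The glycine cleavage system, which takes a one-carbon unit from glycine in mitochondria, had no member higher and 2 of 4 lower. Of all genes tested, 26.2% were higher and 25.4% lower. GCSH, its lipoyl carrier protein, fell from 45.3 ± 2.28 to 27.7 ± 0.764 normalized CPM (log2 fold change -0.71, SE 0.047, adjusted p = 7.02e-07 by edgeR), with 17.03% of its 31-base words shared with other genes. DLD, a dehydrogenase shared with other mitochondrial complexes, fell by 0.35 on the log2 scale. GLDC had a log2 fold change of -0.45 and AMT of -0.21, and neither passed the threshold. In AMT 60.8% of 31-base words occur in other genes, so its reads are uncertain.

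Among 14 other folate genes, for uptake, reduction, retention and further conversion, 3 were higher and 4 were lower, and the median log2 fold change was -0.02. These shares, 21.4% and 28.6%, were near the 26.2% higher and 25.4% lower among all genes tested. ALDH1L1, the cytosolic relative of ALDH1L2, rose from 15.9 ± 1.46 to 23.1 ± 1.14 normalized CPM (log2 fold change 0.54, SE 0.071, adjusted p = 1.13e-04 by edgeR). The mitochondrial folate carrier SLC25A32 rose by a log2 fold change of 0.38 and the proton-coupled folate transporter SLC46A1 by 0.31, but 78.02% and 60.2% of their 31-base words occur in other genes, so their reads are uncertain. The reduced folate carrier SLC19A1 fell by 0.22 on the log2 scale, and so did the mitochondrial methionyl-tRNA formyltransferase MTFMT, by 0.22. Without Y-320 replicate 2, and with DESeq2, 2 of these 14 genes were lower. TYMS, which makes thymidylate, had a log2 fold change of -0.03 and did not pass the threshold. In TYMS 44.2% of 31-base words occur in other genes, so its reads are uncertain too.

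Purine synthesis, the methionine cycle and transsulfuration are users of one-carbon units or of serine. Of the 11 genes for de novo purine synthesis, 8 were lower and 1 was higher, with a median log2 fold change of -0.13. Among all genes tested, 26.2% were higher and 25.4% lower. Changes of the purine genes were small, with a median absolute log2 fold change of 0.13, against 0.21 for all genes tested. With DESeq2, 6 of the 11 were lower, and with each library left out 6 to 8. ATIC, which uses 10-formyltetrahydrofolate in the last steps to inosine monophosphate, fell from 67.0 ± 1.54 to 48.8 ± 1.64 normalized CPM (log2 fold change -0.46, SE 0.037, adjusted p = 2.96e-06 by edgeR). GART, which uses it earlier in the route, fell by 0.17 on the log2 scale, PFAS by 0.31 and PPAT, the first enzyme of the route, by 0.18, and in PPAT the groups overlapped. The gene that was higher was IMPDH1, with a log2 fold change of 0.10 (edgeR adjusted p = 0.0214), a call that was lost with DESeq2, with upper-quartile scaling and without untreated replicate 2, untreated replicate 3 or Y-320 replicate 2. In the methionine cycle and transsulfuration, 3 of 8 tested genes were higher (37.5%) and 4 were lower (50%), with a median log2 fold change of -0.05. CTH and CBS, which turn homocysteine and serine into cysteine, were both higher. CTH rose from 6.69 ± 0.589 to 14.0 ± 0.756 normalized CPM (log2 fold change 1.07, SE 0.086, adjusted p = 2.88e-06 by edgeR), and CBS rose by 0.60 on the log2 scale, with 35.5% of its 31-base words shared with other genes. The methionine synthase MTR was also higher, by 0.18 on the log2 scale. MAT2A, which makes S-adenosylmethionine, fell by 0.36 on the log2 scale, MAT2B by 0.20 and AHCY by 0.17, and BHMT2, at 4.11 normalized CPM in untreated cells, fell by 1.37. Genes of these lists that stand outside the rule for named genes (SPTLC3, SRR, PTDSS1, SFXN1, SFXN2, SFXN3, GLDC, AMT, SLC19A1, MTFMT, TYMS, IMPDH1, MTR, MAT2B and AHCY) were named after their values were seen.

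**Figure D4:**
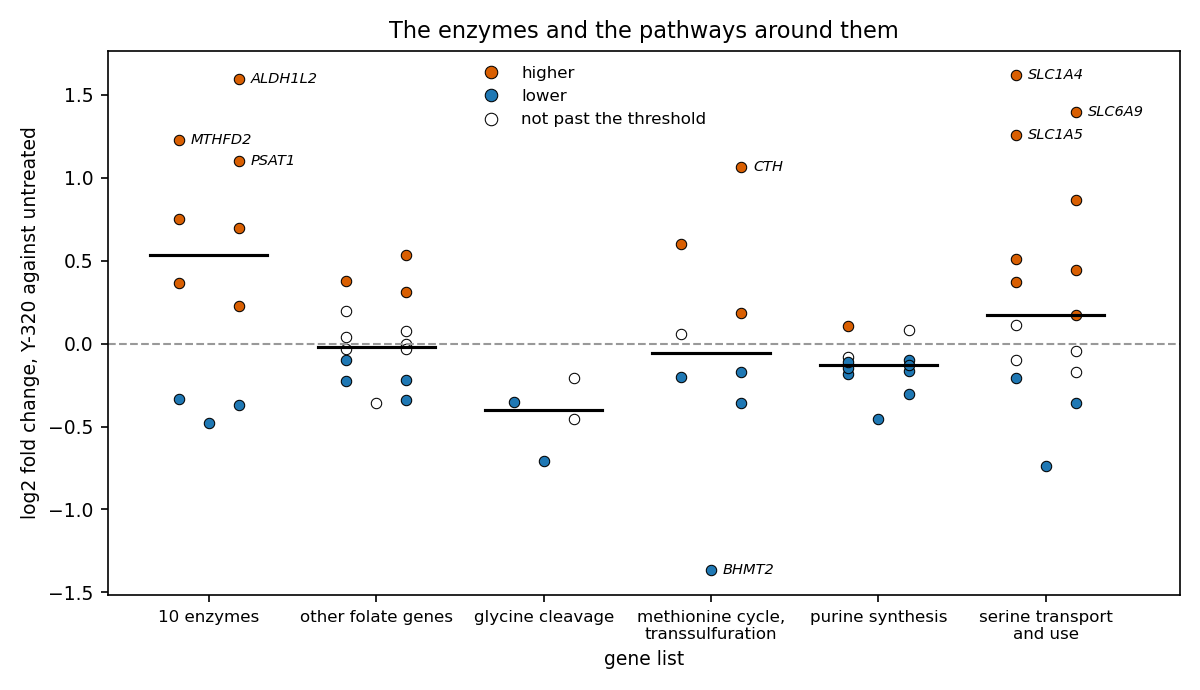
Log2 fold change of Y-320 against untreated for the tested genes of each list (points, orange higher, blue lower, white not past the threshold), with the list median as a black bar and the median of all genes tested as a dashed line. Genes beyond 1 in size are named. The medians are 0.53 for the 10 enzymes, -0.40 for glycine cleavage, -0.13 for purine synthesis and 0.17 for serine transport and use.

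Over the 6 libraries, the tested genes most like ALDH1L2 in log2 level around the gene's own mean were NFIL3, a bZIP repressor, with a root mean square difference of 0.062, and SESN2, a stress-induced sestrin, with 0.066. A row without a gene name, ENSG00000285069, held the same values as SESN2, so the reads of both are uncertain. NFIL3 had 10.5, 10.5 and 9.92 normalized CPM untreated and 27.97, 31.03 and 31.5 with Y-320. The genes most like MTHFD1, the enzyme with the highest level per kilobase in untreated cells, were HMGB1, MPRIP and STMP1, with differences of 0.0086, 0.011 and 0.012. With only 2 conditions, likeness over these libraries mostly reflects a fold change of the same size.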

How the data were processed

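RNA of 3 untreated and 3 Y-320 samples of HDQ-P1 cells was sequenced on an Illumina instrument. The authors deposited estimated counts per Ensembl gene, made with kallisto 0.46.1 on hg38 according to the submitters' processing notes, without normalization. The Ensembl release, and whether strand was used, are not given in the sources used here. The methods combine several pipelines that are not named, so a standard count test was used instead.

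The values were rounded before testing, and 35390 of 40295 rows were matched to gene names. In edgeR 4.0.16 (R 4.3.3), genes were filtered by filterByExpr (minimum 10 counts, 15 in total), scaled by TMM and tested by the quasi-likelihood test without a block, with Benjamini-Hochberg adjustment over 16580 genes and a threshold of 0.05. The fit was tested on simulated data. Standard errors came from the quasi-likelihood F values. Positions, canonical transcripts and shared 31-base words came from GENCODE 44 on hg38. Depth was 21045401 to 22740535 counts per library.

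The 10 genes and the 5 lists were chosen with earlier results of these data known. The rule for named genes takes all 10 enzymes, up to 4 genes of each list with the largest absolute log2 fold change past the threshold, and the 3 genes most like ALDH1L2 and MTHFD1. The alternatives were other filters, other scalings, DESeq2 1.42.0, limma-voom (limma 3.58.1), unrounded counts, a replicate block, each library left out, and pseudogene rows added to the enzymes. Values of some genes that these rules cover are not reported here.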

Additional observations from a re-analysis of the deposited data

How the results depend on the processing

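All 160 values of the 10 enzymes under 16 alternatives had the direction and the side of the threshold reported above, with 7 enzymes higher and 3 lower in each. The same replicate numbers do not mark a shared culture or day in the labels, and same-numbered samples deviated from their group means with correlations of -0.0024, 0.015 and 0.0022. With the replicate block, 7 enzymes were again higher and 3 lower, all list counts were as reported, and 4285 genes were higher and 4159 lower in all. Over all genes tested, DESeq2 gave 3405 higher and 3278 lower. The 4 lower genes among the other folate genes were 2 with DESeq2, and 2 to 4 with each library left out (2 without Y-320 replicate 2). The 1 higher purine gene, IMPDH1, was lost (0 higher) with DESeq2, with upper-quartile scaling, and without untreated replicate 2, untreated replicate 3 or Y-320 replicate 2, so that leaving out a library gave 0 to 1. The log2 difference of the ratio ranged from 0.97 to 1.08 for SHMT2 to SHMT1, from 0.73 to 0.76 for MTHFD1L to MTHFD1 and from 1.63 to 1.75 for MTHFD2 to MTHFD2L with each library left out. The paired form of the ratio test, an exact sign-flip permutation test, gave p = 0.25, the smallest that 3 pairs allow. Depth did not limit the calls of the 10 enzymes, of which MTHFD2L had the fewest counts.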

Other observations

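The nearest protein-coding genes on either side of the 10 enzymes that do not overlap them were looked up as well. Genes that overlap an enzyme were left out, among them SMCR8 at SHMT1, NDUFA4L2 at SHMT2 and SLC4A5 at MTHFD2. Of the 14 neighbours of the 7 enzymes that rose, 3 were higher and 7 were lower, 3 did not pass the threshold and 1 was not tested (edgeR adjusted p under 0.05), where 26.2% of all genes tested were higher and 25.4% lower. Of the 6 neighbours of the 3 enzymes that fell, 2 were higher, 2 were lower and 2 did not pass the threshold. On either side of PSAT1, CEP78 (17435 bases away) fell by 0.32 and TLE4 (1241680 bases away) by 1.00 on the log2 scale. For MTHFD2, MOB1A (7274 bases away) fell by 0.27 and DCTN1 (143589 bases away) by 0.17. Among neighbours that were higher, SLC41A2, 61040 bases from ALDH1L2, rose by 0.77 on the log2 scale. PLEKHG1, 22014 bases from MTHFD1L, rose by 0.60 and NXPH4, 3124 bases from SHMT2, by 0.31. MTHFD2L lies between the chemokine gene CXCL2, 14978 bases away, and the EGF-like ligand gene EPGN, 5371 bases away. CXCL2 was higher by 3.11 on the log2 scale (SE 0.50, adjusted p = 4.34e-04 by edgeR), while MTHFD2L fell by 0.48 and EPGN by 0.66 on the log2 scale. These neighbours were looked up after the values of the enzymes were seen.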
